A study of Mus musculus with 24 samples.

Results

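Glutathione S-transferase (GST) genes were followed in the livers of mice on chow and on 3 oil diets. The genes were taken by symbol from a fixed list: 10 genes of 4 classes, namely Gstm1, Gstm2, Gstm3 and Gstm4 of the mu class, Gsta2, Gsta3 and Gsta4 of the alpha class, Gstt1 and Gstt3 of the theta class, and Gstp1 of the pi class. All 10 were among the 13686 genes of the count table and all 10 were among the 11971 genes with enough counts to test.

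Every animal was a male wild-type (WT) mouse of the inbred strain C57BL/6, and the tissue was liver. The groups differed in what the mice ate for 6 weeks. Controls ate chow, and the others ate a diet enriched in cottonseed oil (called CSO), in olive oil (OO) or in safflower oil (SFO), which the series' design text counts among high-fat diets. The full composition of the diets, the age of the mice and whether samples were pooled are not given in the sources used here, so the oil cannot be told apart from whatever else separates an oil diet from chow. QuantSeq libraries, which count one tag near the 3′ end of each transcript, were available for 6 chow, 6 CSO, 6 OO and 5 SFO samples. The labels name separate samples and say no more, so the p-values rest on variation among these samples alone, some of which may be technical.

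GST enzymes join the tripeptide glutathione to reactive compounds, among them drugs, plant chemicals and the aldehydes that form when polyunsaturated fatty acids are oxidised. The conjugates are pumped out of the cell and trimmed to mercapturates. Liver is among the tissues richest in these enzymes, and their genes are known targets of the xenobiotic receptors CAR and PXR and of the oxidative stress factor NRF2.

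Library totals ran from 5428649 to 14930305 counts. All 10 hepatocyte markers on the list were in the table, and their summed level lay between 110504 and 192922 CPM in every library (CPM, each count set against its library's total, corrected for library composition). Skeletal muscle transcripts, from 14 listed markers, were uneven: their summed CPM ran from 11.4 to 3638 in chow, from 3.70 to 1636 in CSO, from 0.534 to 22.5 in OO and from 0.598 to 68.4 in SFO. Chow 3, chow 4, chow 5 and CSO 1 had over 100 CPM of the muscle actin Acta1, and the calls against chow, or their counts, are given with these libraries and, beside them or at the end of the paragraph, without them. Up to 12 of the 14 muscle markers were at 0 in an OO library, whereas none was at 0 in those 4 libraries. The part of muscle RNA in the GST results was not tested beyond leaving these libraries out. In bulk tissue, fewer cells of a type and less RNA per cell cannot be told apart.

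The summed level of the 10 listed GST genes was lower on each oil diet. This sum leaves out the rest of the GST family, which is described further on. The 10 genes together made up 4436 ± 231 CPM in the 6 chow libraries (mean ± SD), 2809 ± 387 in the 6 of CSO, 3199 ± 326 in the 6 of OO and 2813 ± 293 in the 5 of SFO. The lowest chow library, at 4179 CPM, stood above the highest oil library, at 3569 CPM. A few genes carried this total. Gstm1 held 40.4% of it in chow against 24.2%, 26.4% and 21.2% in CSO, OO and SFO. Gsta3 moved the other way as a share, from 18.3% in chow to 36.4%, 35.3% and 30.3%. A share also rises when the total falls, and in the tests that follow the level of Gsta3 itself was called higher than chow only in OO. Gstp1 held 29.6%, 23.8%, 21.8% and 36.9% in the same order, and the other 7 genes between 11.6% and 16.4%. The total was not tested, since it is led by genes whose own tests follow.

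**Figure D1:**
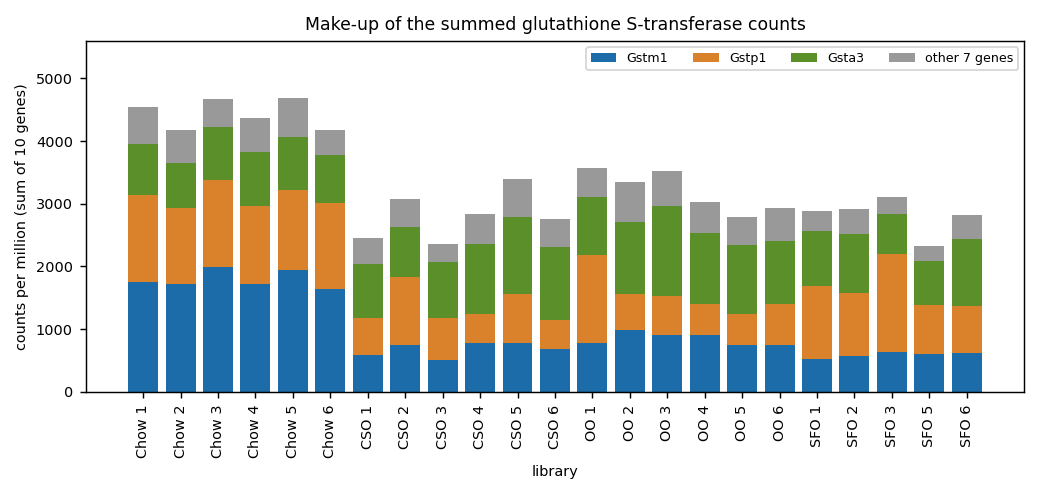
Summed level of the 10 GST genes in CPM, 1 bar for each library, stacked by Gstm1, Gstp1, Gsta3 and the other 7 genes. The chow bars, between 4179 and 4686 CPM, all rise above those of the oil diets, whose Gstm1 sections are shorter.

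Each gene was tested with edgeR's quasi-likelihood test, fitted over all 23 libraries, with Benjamini-Hochberg adjustment over the 11971 genes of a comparison and a threshold of 0.05. Differences are log2 fold changes ± SE. Against chow, 1 of the 10 GST genes passed in CSO, where 0.409% of all tested genes did, and it was lower. In OO 4 of 10 passed, 3 lower and 1 higher, where 2.64% of all genes passed (0.919% lower and 1.72% higher). In SFO 4 of 10 passed, all lower, where 0.835% of all genes passed (0.342% lower). The median log2 fold change of the 10 genes was −0.90 in CSO, −0.83 in OO and −1.14 in SFO, beside −0.02, 0.07 and 0.01 for all tested genes. The 3 comparisons share the chow libraries, so their similarity is not independent evidence. For the mean of the 3 oil diets against chow 5 of 10 passed, all lower on the oils (Gstm1, Gstm3, Gstm4, Gsta2 and Gsta4), where 1.12% of all genes passed (0.668% lower). Without the 4 libraries rich in muscle transcripts, which leaves 3 chow libraries, the counts were 1 in CSO, 1 in OO, 2 in SFO and 1 for the mean of the oils, where 0.113%, 0.210%, 0.275% and 0.234% of all genes passed.

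**Figure D2:**
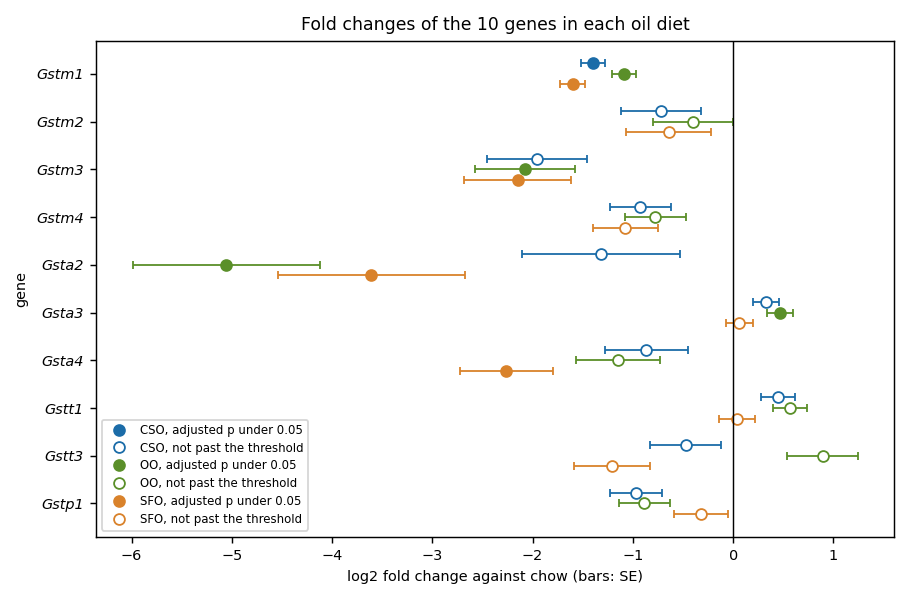
Log2 fold change of each GST gene in CSO, OO and SFO against chow, with bars of 1 SE on either side and filled symbols where the adjusted p was under 0.05. Gstm1 is below 0 with short bars on all 3 diets, Gsta2 has the longest bars and reaches −5.06 on OO, and Gsta3 and Gstt1 lie above 0.

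The 4 mu genes lie in a cluster on chromosome 3, and their enzymes act on aromatic and epoxide substrates. Gstm1 had the highest tag count of the 4. In chow its level ran from 1644 to 1991 CPM with a median of 1737. In CSO it ran from 511 to 785 CPM with a median of 713. In OO it ran from 743 to 983 CPM with a median of 841, and in SFO the 5 libraries had 524, 569, 640.1, 601 and 622 CPM. No oil library reached the lowest chow library, and the OO libraries all lay above the SFO libraries. Gstm1 fell to 37.9% of chow in CSO, a log2 fold change of −1.40 ± 0.12 (adjusted p = 9.96e-12). It fell to 47.0% in OO, −1.09 ± 0.12 (adjusted p = 1.64e-08), and to 32.9% in SFO, −1.60 ± 0.13 (adjusted p = 9.18e-13). The call held under every setting tried, with values from −1.46 to −1.29 in CSO, from −1.28 to −1.01 in OO and from −1.66 to −1.52 in SFO. The order of the group means was chow, OO, CSO, SFO, and of the oil diets next to each other neither OO and CSO (−0.31 ± 0.12 for CSO against OO, adjusted p = 0.166) nor CSO and SFO (0.20 ± 0.12, adjusted p = 0.786) differed past the threshold.

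**Figure D3:**
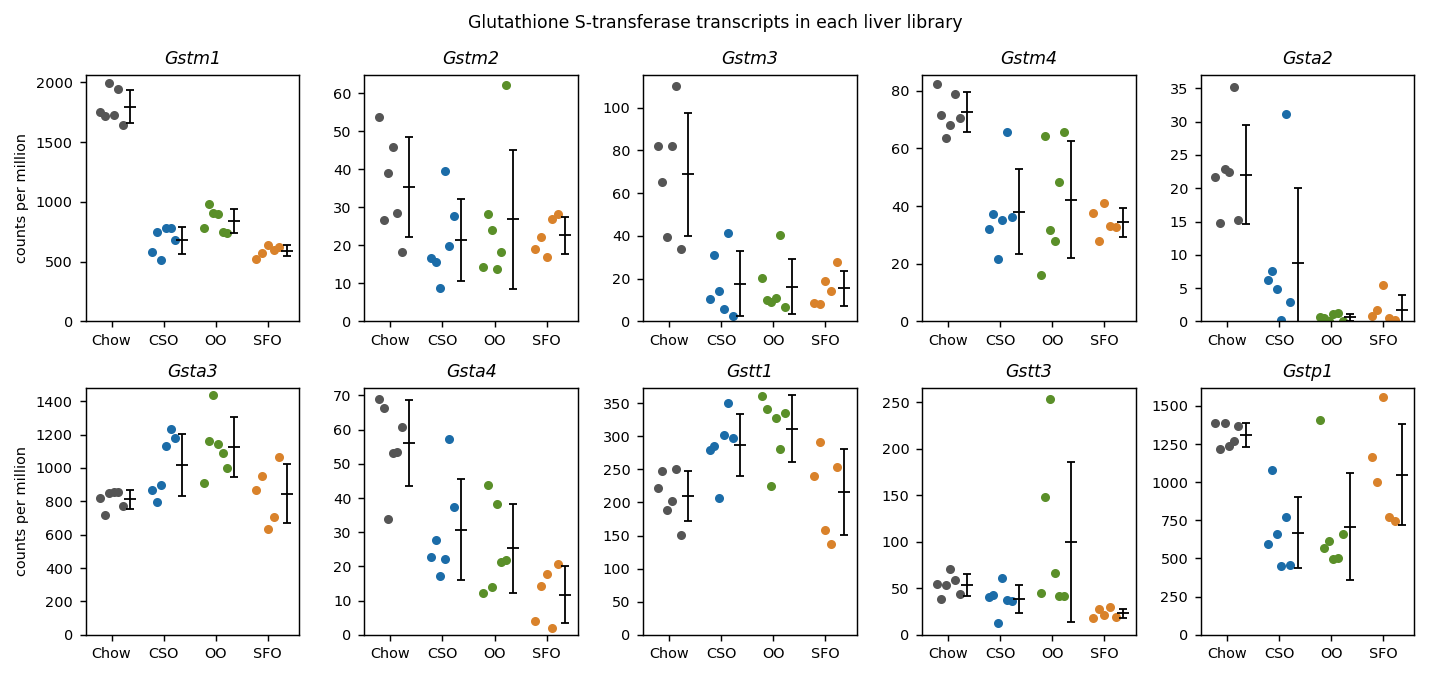
Level of each GST gene in CPM (linear axis from 0) by diet, with 1 point per library and the mean and SD of each group beside the points. The SD bars of Gsta2 are clipped at 0. Gstm1 separates chow from all oil libraries, whereas the groups of Gstm2 overlap.

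Gstm3 was scarcer and more variable. In chow it ran from 33.8 to 110.2 CPM with a median of 73.6, in CSO from 2.78 to 41.6 with a median of 12.4, and in OO from 6.89 to 40.4 with a median of 10.5. The SFO libraries had 8.43, 8.02, 19.1, 14.3 and 27.9 CPM, all under the lowest chow library, while 1 or more libraries of CSO and OO reached into the chow range. Gstm3 fell in OO, with a log2 fold change of −2.07 ± 0.50 (adjusted p = 0.0184), and in SFO, with −2.15 ± 0.54 (adjusted p = 0.0354). In CSO its difference was of like size, −1.96 ± 0.50, and did not pass (adjusted p = 0.0665). These calls were fragile. The OO call was lost without OO 3 (−1.95, adjusted p = 0.0569), and the SFO call without any one of chow 1, 2, 4 or 5 or SFO 1, 2, 3 or 5 (−2.24 to −1.95, adjusted p from 0.0608 to 0.145). The CSO difference passed without CSO 2 (−2.19, adjusted p = 0.0464), without CSO 5 (−2.41, adjusted p = 0.0144) and with the replicate number as a block (−2.16, adjusted p = 0.0165). With voom, another test, the CSO difference passed and the OO call was lost. The SFO call was lost with that block (−1.96, adjusted p = 0.0645). Without the muscle-rich libraries Gstm3 was at −1.88 in OO (adjusted p = 0.217) and −1.95 in SFO (adjusted p = 0.495).

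Gstm4 had a narrow range in chow, 63.6 to 82.3 CPM with a median of 71.1. In CSO it ran from 21.5 to 65.8 CPM with a median of 35.9, in OO from 16.0 to 65.6 with a median of 40.0, and in SFO the libraries had 37.4, 27.9, 41.0, 32.9 and 32.8 CPM. The SFO libraries all lay under chow, as they did for Gstm3, while the highest CSO and OO libraries overlapped with chow. For this and the other GST genes, how often all tested genes separate in this way was not counted. SFO also had 5 libraries against 6 in CSO and in OO. No single oil diet passed for Gstm4, with −0.93 ± 0.30 in CSO (adjusted p = 0.291), −0.78 ± 0.30 in OO (adjusted p = 0.157) and −1.07 ± 0.32 in SFO (adjusted p = 0.131). Under other settings Gstm4 passed in CSO with voom and in a fit of only the diets compared. In SFO it passed with the DESeq2 test and in a fit of only the diets compared. The lowest adjusted p over the settings was 0.00138 in CSO and 0.0162 in SFO. The mean of the oils passed at −0.93 ± 0.24 (adjusted p = 0.0320), a call lost without any one of the 6 chow libraries or CSO 3 (−0.96 to −0.89, adjusted p from 0.0521 to 0.0978). That call was also lost without the muscle-rich libraries. Gstm2 passed in no comparison. Its mean was 35.4 ± 13.2 CPM in chow, 21.5 ± 10.8 in CSO, 26.8 ± 18.2 in OO and 22.6 ± 4.88 in SFO, and its log2 differences from chow lay between −0.72 and −0.40 with SE of 0.40 to 0.42.

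The RefSeq windows around the start sites of Gstm1 and Gstm3 are shown because both fell. Gstm2, which passed in no comparison, lies between them on chromosome 3. Windows span 250 bases before to 50 bases after a start site in build GRCm38.p6, whereas the counts were made on mm39, so genes and windows were joined by symbol alone. Of the 10 genes 9 had a window, 12 windows in all. Capitals mark the letters of 6 motifs, searched on both strands. The antioxidant response element core was TGACNNNGC, and the core of the xenobiotic response element was GCGTG. A short site bound by CAR and PXR was searched as AGTTCA. The TATA box was searched as TATAAA, and the GC box of promoters was GGGCGG. The remaining one, known for NF-Y binding, was CCAAT, which reads ATTGG on the opposite strand. Gstm1 is at chr3:108017769-108018068 and Gstm3 at chr3:107969125-107969424, both on the minus strand and printed 5′ to 3′ in the gene's direction.
Gstm1: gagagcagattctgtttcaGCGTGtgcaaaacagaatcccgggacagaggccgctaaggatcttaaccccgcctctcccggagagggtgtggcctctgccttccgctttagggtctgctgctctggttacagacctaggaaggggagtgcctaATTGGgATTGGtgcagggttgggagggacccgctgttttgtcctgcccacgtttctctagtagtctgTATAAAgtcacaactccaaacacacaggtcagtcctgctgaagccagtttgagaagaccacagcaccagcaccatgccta
Gstm3: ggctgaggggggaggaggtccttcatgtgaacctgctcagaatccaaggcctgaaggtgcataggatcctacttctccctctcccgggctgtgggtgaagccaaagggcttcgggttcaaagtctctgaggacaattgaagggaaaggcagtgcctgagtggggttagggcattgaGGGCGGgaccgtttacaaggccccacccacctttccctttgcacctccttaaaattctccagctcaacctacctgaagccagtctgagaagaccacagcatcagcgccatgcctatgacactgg
The Gstm1 window shown held TATAAA 30 bases before the start site, GCGTG at −231 and CCAAT on the opposite strand at −97 and −91, and that of Gstm3 held only GGGCGG at −74. A second Gstm1 window, at chr3:108017924-108018223 with its start site upstream, held GCGTG at −76 and the NF-Y motif on the same strand at −206, and no TATA box match. Among 32851 RefSeq windows of the same length, TATAAA was in 13.6%, GCGTG in 32.4%, CCAAT in 37.4% and GGGCGG in 35.7%. A match describes letters and shows no binding.

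The alpha class split. Gsta2, whose enzyme acts on organic hydroperoxides and is a classical inducible GST, fell to traces in OO and SFO. In chow it ran from 14.7 to 35.2 CPM with a median of 22.1, in CSO from 0.210 to 31.2 with a median of 5.56, and in OO from 0 to 1.34 with a median of 0.598. The SFO libraries had 0.882, 1.79, 5.46, 0.528 and 0.190 CPM. In raw counts the OO libraries held 6, 5, 1, 11, 12 and 0 tags and the SFO libraries 9, 15, 60, 5 and 1, so these levels are near the limit of the depth. OO and SFO did not overlap with chow, and CSO did through CSO 5 alone. Gsta2 fell in OO, with a log2 fold change of −5.06 ± 0.93 (adjusted p = 0.000920), and in SFO, with −3.61 ± 0.93 (adjusted p = 0.0422). The SFO call was lost without any one chow library or without SFO 1, 2, 5 or 6 (−3.70 to −3.33, adjusted p from 0.0586 to 0.151), and both were lost without the muscle-rich libraries (−4.70 ± 1.17 in OO, adjusted p = 0.0696, and −3.25 ± 1.19 in SFO, adjusted p = 0.694). In CSO its difference was −1.32 ± 0.79 (adjusted p = 0.9996), and without CSO 5 it was −2.34 ± 0.87 (adjusted p = 0.600). Voom alone called Gsta2 in CSO (adjusted p = 0.00707).

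Gsta4 encodes an enzyme with high activity toward 4-hydroxynonenal, an aldehyde that forms from omega-6 fatty acids. Its chow libraries ran from 33.9 to 68.9 CPM with a median of 57.2, CSO from 17.2 to 57.4 with a median of 25.1, and OO from 12.3 to 43.8 with a median of 21.6. The SFO libraries had 4.12, 14.2, 17.7, 2.01 and 20.7 CPM, all under chow, whereas CSO and OO reached into the chow range. Gsta4 fell in SFO to 20.9% of chow, a log2 fold change of −2.26 ± 0.46 (adjusted p = 0.00373). This call held under every setting tried, from −2.79 to −1.99, and without the muscle-rich libraries at −2.47 ± 0.55 (adjusted p = 0.0243). In CSO the difference was −0.87 ± 0.41 (adjusted p = 0.921) and in OO −1.15 ± 0.42 (adjusted p = 0.117). Voom alone called Gsta4 in CSO (adjusted p = 0.0095). The difference between SFO and OO did not pass (−1.11 ± 0.44, adjusted p = 0.203), nor did that between CSO and SFO (1.40 ± 0.45, adjusted p = 0.218), so the fall is not shown to belong to SFO.

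Gsta3, an alpha enzyme also known for steroid isomerisation, was the 1 gene of the 10 called higher than chow. In chow it ran from 716 to 853 CPM with a median of 836, in CSO from 796 to 1236 with a median of 1013, and in OO from 912 to 1440.0 with a median of 1116. The SFO libraries had 871, 952, 635, 707 and 1068 CPM. OO did not overlap with chow, and CSO and SFO did. Gsta3 rose in OO by 0.47 ± 0.13 on the log2 scale (adjusted p = 0.0361), with 0.33 ± 0.13 in CSO (adjusted p = 0.623) and 0.06 ± 0.14 in SFO (adjusted p = 0.988). The OO call was lost in 15 of 23 settings, among them the omission of any one chow library or of OO 2, 3 or 4 (0.39 to 0.49, adjusted p from 0.0541 to 0.0954). Without the muscle-rich libraries Gsta3 in OO was at 0.55 (adjusted p = 0.208), and with the replicate number as a block its adjusted p was 0.0542. Scaling by library totals, without a composition factor, moved the median of all genes in OO against chow by −0.19 and gave Gsta3 0.28 (adjusted p = 0.249). Under that scaling 62 genes were called higher and 162 lower in OO, against 206 and 110 as reported here.

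The windows of Gsta2 and Gsta3 are shown because these 2 alpha genes went opposite ways in OO. Gsta2 is at chr9:78347096-78347395 on the minus strand and Gsta3 at chr1:21240335-21240634 on the plus strand of GRCm38.p6.
Gsta2: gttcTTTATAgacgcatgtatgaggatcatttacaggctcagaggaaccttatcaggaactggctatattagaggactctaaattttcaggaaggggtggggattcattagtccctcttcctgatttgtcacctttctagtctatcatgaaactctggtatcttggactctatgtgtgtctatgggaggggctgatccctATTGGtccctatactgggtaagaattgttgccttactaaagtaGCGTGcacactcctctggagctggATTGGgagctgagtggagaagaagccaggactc
Gsta3: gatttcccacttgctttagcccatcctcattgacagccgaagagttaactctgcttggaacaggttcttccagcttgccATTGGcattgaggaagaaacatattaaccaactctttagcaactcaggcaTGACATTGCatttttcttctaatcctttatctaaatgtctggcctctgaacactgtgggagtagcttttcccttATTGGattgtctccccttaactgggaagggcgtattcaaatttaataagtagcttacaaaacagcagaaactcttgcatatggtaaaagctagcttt
Gsta3 held the antioxidant response element core once, as TGACATTGC at −121, which 12.4% of all windows match, and CCAAT on the opposite strand at −171 and −47. Gsta2 held GCGTG at −7, TATAAA on the opposite strand at −246 and CCAAT on the opposite strand at −50 and 18. AGTTCA, present in 14.0% of all windows, was not among the letters of any of the 12 windows. Other forms of a CAR and PXR site were not searched, so the absence of such sites is not shown.

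The theta genes, Gstt1 and Gstt3, lie together on chromosome 10, and their enzymes act on halogenated alkanes. Gstt1 had a mean of 210.4 ± 37.7 CPM in chow, 287 ± 46.5 in CSO, 312 ± 50.3 in OO and 216 ± 65.6 in SFO, and its groups overlapped. Its difference in OO was 0.57 ± 0.17 and just missed the threshold (adjusted p = 0.0566). It passed without OO 3 (0.65, adjusted p = 0.0379) or without OO 5 (0.60, adjusted p = 0.0477), and with DESeq2.

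Gstt3 was spread most widely in OO. In chow it ran from 38.4 to 71.3 CPM with a median of 54.6, and in CSO from 13.1 to 61.3 with a median of 38.9. In OO it ran from 41.2 to 254 with a median of 55.8, and in SFO the libraries had 18.0, 27.6, 21.6, 29.4 and 19.0 CPM. The SFO libraries lay under every chow and OO library, and OO 2 and OO 3, at 149 and 254 CPM, stood above all other libraries. No comparison of Gstt3 with chow passed (−0.47 ± 0.35 in CSO, 0.89 ± 0.35 in OO with adjusted p = 0.170, and −1.21 ± 0.38 in SFO with adjusted p = 0.179), and without OO 3 the OO value was 0.36 ± 0.32. In a fit of only the diets compared the SFO difference passed (adjusted p = 0.0333). The neighbouring theta gene Gstt2, which is outside the 10 genes, was at 160.3 and 168 CPM in OO 2 and OO 3 and between 20.2 and 29.9 CPM in the other OO libraries. CSO 5 and CSO 6, at 142 and 111 CPM of Gstt2, had ordinary Gstt3 levels of 36.9 and 36.5 CPM. OO 3 also had the lowest composition factor of all libraries, 0.811, and its part in these values was not tested beyond leaving the library out.

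**Figure D4:**
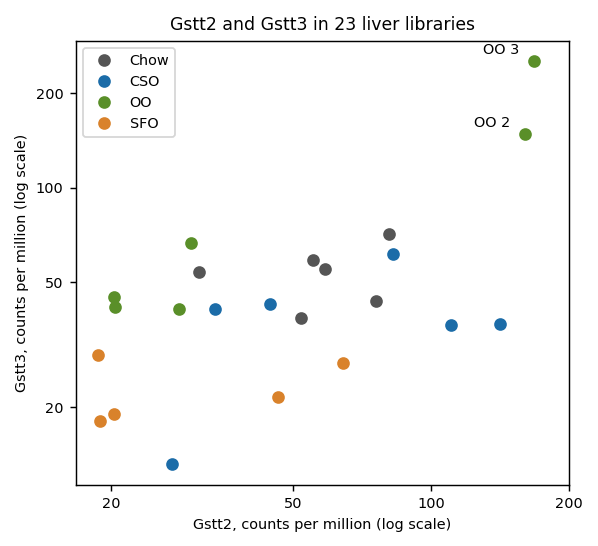
Level of Gstt3 against that of its neighbour Gstt2 in each of the 23 libraries, in CPM on log axes, coloured by diet. OO 2 and OO 3 stand apart at the upper right, with Gstt3 at 149 and 254 CPM, and CSO 5 and CSO 6 are high in Gstt2 only.

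The pi gene Gstp1, whose enzyme is highly expressed in the liver of male mice, had the second highest tag count of the 10 in chow. Its chow libraries ran from 1215 to 1387 CPM with a median of 1319.7, CSO from 454 to 1080.1 with a median of 628, and OO from 496 to 1408 with a median of 593. The SFO libraries had 1165, 1001, 1559, 775 and 748 CPM. All CSO libraries lay under chow, as did 5 of the 6 OO libraries, while OO 1 was above every chow library. Gstp1 did not pass in any comparison, with −0.97 ± 0.26 in CSO (adjusted p = 0.148), −0.89 ± 0.25 in OO (adjusted p = 0.0644) and −0.32 ± 0.27 in SFO (adjusted p = 0.903). These calls turned on single libraries and on the method. Without OO 1 it was −1.20 ± 0.18 in OO (adjusted p = 9.62e-05), and without CSO 2 it was −1.16 in CSO (adjusted p = 0.0249). With the replicate number as a block it also passed in OO (−0.96, adjusted p = 0.0328). DESeq2 called it in CSO (adjusted p = 0.0172) and OO (adjusted p = 0.0308), as did a fit of only the diets compared (0.00577 and 0.0186). Scaling by library totals called it in OO (adjusted p = 0.0375) and voom in CSO (adjusted p = 0.00351). In the authors' deposited table Gstp1 had adjusted p of 0.0342 in CSO and 0.0317 in OO.

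The counts of 2 of these genes may be split with a near copy. Over the last 300 bases of the annotated main transcript, Gstp1 and Gstp2 were identical along all 300, and Gsta2 shared a run of 88 bases with Gsta1. Gstm1 and Gstm3 shared no run over 25 bases, and every other gene none over 14 with any GST gene searched. Gsta1 and Gstp2 were too low to test. Both had their highest level in chow 5, Gsta1 at 6.32 CPM and Gstp2 at 9.73 CPM. In that library Gsta2 was at 35.2 CPM and Gstp1 at 1271 CPM.

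Pairs of oil diets were then compared. In CSO against OO 2 of 10 passed, where 1.09% of all genes did: Gsta2 was higher in CSO by 3.74 ± 0.88 (adjusted p = 0.0196) and Gstt3 was lower, with −1.37 ± 0.36 (adjusted p = 0.0433). In both cases the groups overlapped. The Gsta2 call was lost without CSO 5 (2.72, adjusted p = 0.114), and the Gstt3 call without any one of CSO 1, 2, 3, 5 or 6, OO 2 or OO 3 (−1.40 to −0.83, adjusted p from 0.0640 to 0.218). In SFO against OO 2 of 10 passed, where 1.06% of all genes did: both were lower in SFO, Gstm1 with −0.51 ± 0.12 (adjusted p = 0.0277) and Gstt3 with −2.10 ± 0.39 (adjusted p = 0.00582). Neither overlapped. The Gstm1 call was lost without any one of OO 2 or SFO 1, 2 or 5 (−0.52 to −0.45, adjusted p from 0.0559 to 0.0811), and Gstt3 still passed without OO 2 (−1.95, adjusted p = 0.0139) and without OO 3 (−1.57, adjusted p = 0.0267), but not with voom (−1.39, adjusted p = 0.278) or in a fit of only the diets compared (−2.09, adjusted p = 0.0698). With the replicate number as a block, Gstm1 (−0.49, adjusted p = 0.0539) and Gstt3 in CSO against OO (−1.19, adjusted p = 0.130) no longer passed. In CSO against SFO 0 of 10 passed with edgeR, DESeq2 or voom, where 0.493% of all genes passed with edgeR. Of the 10, 4 had an unadjusted edgeR p under 0.05. For this and later counts at an unadjusted p, the share of all genes at that threshold was not counted. The SE of the 10 differences between CSO and SFO ran from 0.12 to 0.88, so a difference in the scarce genes may have gone undetected.

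Other members of the wider GST family, and the membrane-bound MAPEG enzymes of like activity, were listed as 20 genes. Of these 11 had enough counts to test, and 1 passed: Gstk1, a kappa-class enzyme of mitochondria and peroxisomes, rose in OO by 0.85 ± 0.22 (adjusted p = 0.0254), from 87.8 ± 12.6 to 158 ± 60.3 CPM, where 2.64% of all genes passed. Leaving out the muscle-rich libraries gave 0.88 (adjusted p = 0.243). In CSO and SFO 0 of 11 passed with edgeR, with 1 and 2 at an unadjusted p under 0.05. DESeq2 called 0 and 1 and voom 0 and 0. Mgst1, the microsomal GST and the most abundant gene of this list, was at 3487 ± 459.8 CPM in chow and differed by 0.03 ± 0.10, 0.06 ± 0.10 and −0.12 ± 0.11 in CSO, OO and SFO. Gstz1, which also degrades tyrosine, differed by 0.27 ± 0.19, 0.41 ± 0.19 and 0.01 ± 0.20. The list's medians were 0.00, 0.16 and −0.27, and its values ran from −0.65 to 0.87 in CSO, from −0.95 to 1.10 in OO and from −2.15 to 0.49 in SFO.

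Of 23 tested genes that make or recycle glutathione, 1 passed in CSO, 1 in OO and 2 in SFO, where 0.409%, 2.64% and 0.835% of all genes passed. Gclc, the catalytic subunit of the rate-limiting enzyme of glutathione synthesis, had 538 ± 65.6 CPM in chow, 278 ± 49.0 in CSO, 575 ± 121 in OO and 265 ± 37.0 in SFO. It fell in CSO (−0.95 ± 0.15, adjusted p = 7.11e-05) and in SFO (−1.02 ± 0.16, adjusted p = 3.70e-05). In OO it was at 0.10 ± 0.14 (adjusted p = 0.806), and CSO and SFO were each lower than OO (−1.05 ± 0.15, adjusted p = 1.25e-05, and −1.12 ± 0.16, adjusted p = 4.83e-05). Gsr, which regenerates reduced glutathione, fell in SFO (−0.84 ± 0.21, adjusted p = 0.0288). Hagh, a glyoxalase, rose in OO by 0.55 ± 0.15 (adjusted p = 0.0413). The medians of the list were −0.08, 0.10 and −0.24 in CSO, OO and SFO. When the muscle-rich libraries were left out, Gclc passed in CSO (−0.97, adjusted p = 0.0113) and in SFO (−1.05, adjusted p = 0.00221), while Gsr (−0.90, adjusted p = 0.273) and Hagh (0.65, adjusted p = 0.184) did not.

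Of 21 tested genes for export of conjugates and their conversion to mercapturates, 0 passed in CSO with edgeR (3 at an unadjusted p under 0.05, 0 with DESeq2 and 1 with voom). In OO 2 were higher and 1 lower, where 1.72% and 0.919% of all genes were, and in SFO 1 was higher and 1 lower, where 0.493% and 0.342% were. Nat8f2, of the family of the N-acetyltransferase that ends the mercapturate route, rose in OO by 0.65 ± 0.14 (adjusted p = 0.00737) and in SFO by 0.71 ± 0.15 (adjusted p = 0.00386). Anpep, an aminopeptidase, rose in OO by 0.84 ± 0.19 (adjusted p = 0.00989). The export pump Abcc3 fell in SFO (−1.51 ± 0.26, adjusted p = 0.000832), from 326 ± 34.5 to 115 ± 73.0 CPM. The export pump Abcc4 fell in OO (−4.98 ± 1.43, adjusted p = 0.0449), with only 12 counts in the 6 OO libraries against 431 in chow. Abcc2, the canalicular pump for conjugates, was at 0.05 ± 0.14 in CSO. The medians were 0.13, 0.37 and 0.06. Without the muscle-rich libraries Abcc3 passed in SFO (−1.53, adjusted p = 0.00927), and Nat8f2 (0.70 in OO and 0.77 in SFO, adjusted p of 0.0995 and 0.0751), Anpep (0.83, adjusted p = 0.193) and Abcc4 (−4.74, adjusted p = 0.270) did not.

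Genes that CAR and PXR are known to switch on, GST genes left out, were lower where they passed, with 2 exceptions. Of 23 tested, 4 were called lower and 1 higher in CSO, 3 lower and 1 higher in OO, and 6 lower in SFO (all genes: 0.2% lower and 0.209% higher, 0.919% and 1.72%, and 0.342% lower), with medians of −0.44, −0.15 and −0.74. Cyp3a11, a major drug-metabolising cytochrome P450, fell on each, with −2.77 ± 0.28 in CSO, −2.60 ± 0.28 in OO and −2.87 ± 0.31 in SFO (adjusted p of 1.19e-05, 1.93e-05 and 1.55e-05). Its mean went from 5219 CPM in chow to 766, 861 and 716. The carboxylesterase Ces2a and the P450 Cyp2c29 also fell on each oil diet, and Cyp3a25 fell in CSO and SFO. Ugt2b35 and Cyp2b10, named after their values were seen, were the other falls in SFO, and Cyp2b10 was at 0 in every SFO library. The exceptions were Por, the electron donor of P450 enzymes, which rose in CSO by 0.77 ± 0.19 (adjusted p = 0.0428), and the sulfotransferase Sult1d1, which rose in OO by 0.97 ± 0.22 (adjusted p = 0.0112). Without the muscle-rich libraries 3, 2 and 3 genes were called lower and 0 higher on each diet.

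Of 19 tested NRF2 targets outside the lists above, 2, 2 and 3 were called lower in CSO, OO and SFO and none higher (of all genes 0.2%, 0.919% and 0.342% were lower), with medians of −0.28, −0.30 and −0.44. DESeq2 called 1 higher in OO. Ephx1, the microsomal epoxide hydrolase, fell on all 3 diets, with −0.96 ± 0.17, −1.25 ± 0.17 and −1.52 ± 0.18 (adjusted p of 0.000887, 5.05e-06 and 1.96e-07). Ugdh, which makes UDP-glucuronic acid, fell in CSO (−0.98 ± 0.19, adjusted p = 0.00247) and in SFO (−0.91 ± 0.20, adjusted p = 0.00668). Ftl1, the light chain of ferritin, fell in OO and Entpd5, a nucleotidase, in SFO. Without the muscle-rich libraries 0, 1 and 1 were called lower. Of 20 transcription factors known to act on GST genes, 1 passed, in OO, where 2.64% of all genes did (1.72% higher). This was Ctnnb1 (beta-catenin), which rose by 0.62 ± 0.15 (adjusted p = 0.0184), and without the muscle-rich libraries it was at 0.54 (adjusted p = 0.315). In CSO and SFO 0 of 20 passed with edgeR, DESeq2 or voom, with 4 and 2 at an unadjusted edgeR p under 0.05. Hnf4a was at −0.33 ± 0.15 in CSO and −0.02 ± 0.15 in SFO, and Cebpa at −0.10 ± 0.13 and 0.11 ± 0.14.

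**Figure D5:**
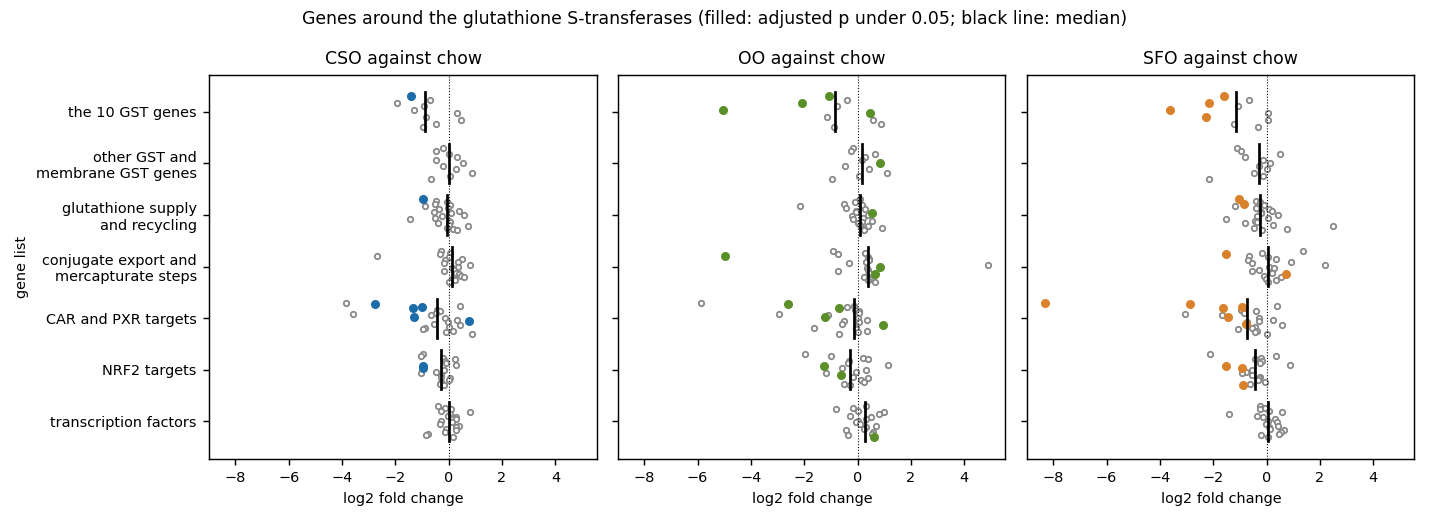
Log2 fold change against chow of every tested gene of 7 lists, 1 panel for each oil diet, with 1 point per gene, filled where the adjusted p was under 0.05, and a black line at the median of the list. The medians of the 10 GST genes, from −1.14 to −0.83, lie left of 0 on all 3 diets. The leftmost point for SFO is Cyp2b10, which was at 0 in every SFO library, so its fitted place depends on the prior count and is no measure of size.

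Pericentral hepatocyte markers, genes of the zone around the central vein where several GST genes are known to be high, were counted beside the GST genes. Their summed level over 15 genes ran from 8931 to 12976 CPM in chow, 11069 to 18675 in CSO, 12959.9 to 19565 in OO and 10511 to 13629 in SFO. Of the 15, 3 were called higher in CSO, 6 in OO and 2 in SFO with edgeR, where 0.209%, 1.72% and 0.493% of all genes were, and 0 lower. DESeq2 and voom each called 1 lower in CSO. The medians were 0.33, 0.48 and 0.06, and the summed ranges of SFO and chow overlapped. With the muscle-rich libraries left out, 0, 3 and 1 were called higher. Their part in the GST results was not tested. A clock score (mean log2 level of genes that peak late in the day minus those that peak opposite) averaged 1.48 in chow, 3.92 in CSO, 1.21 in OO and 1.70 in SFO. With that score as a covariate the counts of GST genes called against chow were 1, 4 and 3, where 0.192%, 2.82% and 0.869% of all genes passed.

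The genes outside the 10 whose log2 level followed that of Gstm1 most closely over the 23 libraries were Ces2a (Pearson r = 0.93), Cyp3a11 (0.91), Cyp2c29 (0.88), Csad (0.88), which makes taurine, and Ugt2b5 (0.85), a glucuronosyltransferase. Within diets, after the mean of each diet was taken off, these correlations were 0.28, 0.14, 0.21, 0.36 and 0.47. Among the 10 genes themselves, Gstm1 and Gstm4 had an r of 0.73 (0.34 within diets), Gstm3 and Gsta2 0.70 (0.53 within diets), and Gsta3 and Gstp1 −0.72 (−0.53 within diets). These describe libraries that share depth and scaling, and carry no test.

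The authors' deposited tables of results, turned so that positive means higher on the oil diet, had 3, 6 and 5 of the 10 genes at an adjusted p under 0.05 in CSO, OO and SFO. All 1, 4 and 4 genes called here were among them. The share of all genes past the threshold in the authors' tables was not counted, so the larger numbers there are not shown to be particular to GST genes. In the authors' deposited tables Gstm1 was at −1.41 in CSO, −1.10 in OO and −1.59 in SFO.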

How the data were processed

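Raw counts, 1 row per gene and 1 column for each of 23 libraries, were deposited by the authors, with a table of results for each oil diet. Per the submitters' processing notes, Trimmomatic, STAR 2.7.1a, HTSeq 0.9.1, DESeq2 and DESeq were used with mm39. Strand handling was not given in the sources used here. Their deposited results hold log2 fold changes of chow over oil (turned here), their SE, a score (the Wald statistic) and each p-value. SFO 4, which the submitters left out as an outlier with possible contamination, was not analysed here.

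Counts were fitted in R 4.3.3 with edgeR 4.0.16 (TMM scaling, filterByExpr by diet, robust quasi-likelihood F test, all 4 diets in 1 fit), and 7 comparisons were tested. Adjusted p is Benjamini-Hochberg over 11971 genes. SE is the log2 fold change over the root of F, and log2 CPM used a prior count of 2. The procedure was tested on simulated counts. Alternatives used limma 3.58.1 (voom), DESeq2 1.42.0, other scalings and filters, only the diets compared, a replicate block, and each library left out. Leaving out libraries with Acta1 over 100 CPM, also with OO 3, and a clock covariate were added after the data were seen. Figures used matplotlib 3.10.9.

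The genes and gene lists were chosen with earlier results of these data known. Named outside the 10 genes were up to 4 called genes per list and comparison with chow by smallest adjusted p, the 2 with the highest mean where none passed, and the 5 most like Gstm1 among genes averaging 4 or more in log2 CPM.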

Additional observations from a re-analysis of the deposited data

Results flagged for a closer look

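In 4 of 40 groups (10 genes on 4 diets) 1 library stood far from the rest, by Dixon's gap test, whose critical value is set so that about 1 group in 20 of normally distributed values passes. Gstm2 was at 62.2 CPM in OO 6 with the nearest OO library at 28.2. Gstm4 was at 65.8 CPM in CSO 5 with the nearest CSO library at 37.2. Gsta2 was at 31.2 CPM in CSO 5 with the nearest at 7.53. Gstp1 was at 1408 CPM in OO 1 with the nearest OO library at 662.

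In edgeR's test of the difference itself, 3 genes were called between oil diets. Of all genes 1.09% passed in CSO against OO and 1.06% in SFO against OO. Gsta2 was higher in CSO than in OO (3.74 on the log2 scale), Gstt3 was lower in CSO than in OO (−1.37) and lower in SFO than in OO (−2.10), and Gstm1 was lower in SFO than in OO (−0.51). Without CSO 5 the Gsta2 difference was 2.72 and the call was lost (adjusted p = 0.114). Without OO 3 the Gstt3 call was lost in CSO against OO (−0.83, adjusted p = 0.218). It was kept in SFO against OO (−1.57, adjusted p = 0.0267). Over all settings, the CSO against OO calls were lost in 6 of 23 for Gsta2 and 14 of 23 for Gstt3. The SFO against OO calls were lost in 10 of 22 for Gstm1 and 3 of 22 for Gstt3.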

How the results depend on the processing

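Of 1100 values of single GST genes under other settings, 969 kept their direction and side of the threshold, 93 lost a call, 29 gained one and 9 turned sign. Many of the 1100 belong to results not called in the main fit, which had no call to lose. So 93 of 1100 is not the rate at which calls were lost. By result, losses ran from 0 of 22 settings for Gsta4 in SFO to 15 of 23 for Gsta3 in OO. The sign changes were Gsta3 in SFO (library totals −0.000134, voom −0.0255, and −0.0351 to 0.149 with 1 library left out) and Gstt1 in SFO (library totals −0.0264, voom −0.116, and −0.0811 to 0.164 with 1 library left out), neither of which passed. In CSO against chow, with 1 GST gene called, DESeq2 called 2, voom 6, the replicate block 2 and a fit of only the diets compared 3. Of all genes 0.409% passed in the main fit, and 0.927%, 1.72%, 0.434% and 1.81% under those settings in that order. In OO against chow, with 4 called, voom called 2 and DESeq2 6, and in SFO, with 4 called, DESeq2 called 5, a fit of only the diets compared 6 and the block 3. In the same order 0.969% and 5.73% of all genes passed in OO, against 2.64% in the main fit. In SFO 1.56%, 0.99% and 0.76% passed, against 0.835%. Without the libraries with Acta1 over 100 CPM the counts were 1 in OO, 2 in SFO, 1 for the mean of the oils, 0 in CSO against OO and 1 in SFO against OO, and without OO 3 as well 1, 2, 1, 0 and 0. Of all genes 0.21%, 0.275%, 0.234%, 0.323% and 0.299% passed, and without OO 3 as well 0.202%, 0.307%, 0.299%, 0.34% and 0.113%. These fits test fewer libraries, and the cause was not tested further. Of the 2 genes each called in CSO against OO and in SFO against OO, library totals left 1 and 1, voom 0 and 0, the block 1 and 1 and a fit of only the diets compared 0 and 0, and the clock covariate left 0 in CSO against OO. In CSO against OO 0.693%, 0.952%, 1.02%, 0.756% and 0.342% of all genes passed under these settings in that order. In SFO against OO 0.468% did with library totals, 0.0752% with voom, 0.643% with the block and 0.0192% with only the diets compared. Leaving out 1 library gave 1 to 3 in CSO, 3 to 5 in OO, 2 to 3 in SFO, 4 to 6 for the mean of the oils, 0 to 2 in CSO against OO, 0 to 0 in CSO against SFO and 1 to 3 in SFO against OO. The shares of all genes in these fits are not given here, so the shifts are not shown to be particular to GST genes. Library totals moved the median of all genes in CSO against OO by 0.16 and in SFO against OO by 0.13, with 49 genes called higher and 34 lower in place of 30 and 100, and 33 and 23 in place of 32 and 95. Replicate numbers did not pair the samples: over 33 pairs of same-numbered samples the correlation of deviations ran from −0.10 to 0.03, and 5 samples correlated best with their own number. Against chow, the block added Gstm3 in CSO and Gstp1 in OO and removed Gsta3 in OO and Gstm3 in SFO. Depth limits scarce genes such as Gsta2, Abcc4 and Cyp2b10, with few or no tags in OO or SFO libraries.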
